A study of Mus musculus with 44 samples.

Results

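The clustered protocadherins are adhesion proteins of the neuronal surface, encoded in the mouse by 3 neighbouring gene clusters. All genes with symbols beginning Pcdha, Pcdhb or Pcdhg were taken from the RefSeq gene table, 58 in all, of which 14 are α, 22 are β and 22 are γ genes. On mm10 the α cluster spans chr18:36930285-37188897, the β cluster chr18:37264998-37521419 and the γ cluster chr18:37661775-37841873. Regions of open chromatin were taken across the clusters, the gaps between them and 50 kb beyond either end. They number 80 of the 183340 regions defined over the autosomes, with 15 in the α cluster, 3 in the α-to-β gap, 7 in the β cluster, 3 in the β-to-γ gap, 36 in the γ cluster, 16 downstream of γ and 0 upstream of α.

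Chromatin was profiled by ATAC-seq, in which a transposase cuts accessible DNA, in primary cortical neurons of mice, prepared at embryonic day 16.5. The study, which concerns the chromatin remodelling complex BAF and its response to synaptic activity, has 44 libraries in 22 groups of 2. In the drug experiment, uninfected wild-type neurons at 7 days in vitro (DIV7) received 0.1% DMSO or 100 nM FHT1015, which inhibits the ATPase of BAF, for 10 or 30 min, with or without depolarization by 50 mM KCl. In the Arid2 experiment, DIV7 neurons carried non-targeting guide RNAs or guides against Arid2, a subunit of the PBAF form of the complex, and were unstimulated or depolarized for 30 min. At DIV18, neurons carried non-targeting guides or guides against Smarcc2, a core BAF subunit. The Smarcc2 knockout received an empty vector, wild-type Smarcc2 or its S586A or S586E form, and each of these 5 genotypes was unstimulated or depolarized for 30 min. Every culture was silenced overnight with tetrodotoxin and D-AP5, controls included, and DNase was present during the treatments. The labels count each embryo's cortex as a replicate without tying libraries to embryos, so p-values here measure the spread between libraries, which may be technical. The guides act in a mixed culture, and peak lists cannot show how complete either knockout was.

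Each α and γ gene has a variable first exon with its own promoter, joined to constant exons that its cluster shares, whereas β genes are single exons. Individual neurons use few of the alternate promoters, apparently chosen at random, in a process that involves CTCF, cohesin, DNA methylation and distal enhancers. The resulting combination lets a neuron tell its own branches from those of others. The 5 C-type genes, Pcdhac1, Pcdhac2, Pcdhgc3, Pcdhgc4 and Pcdhgc5, stand last in their clusters and are used more uniformly, and the other 53 genes are called alternate here.

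The data are lists of accessible summits, so each value is a place in a list. In every library the autosomal summits were ordered by the authors' −log10 p and the best 100000 were kept. The rank score of a 500 bp region is log2 of 100000 divided by the rank of its best summit, and 0 where none of the 100000 falls there. A difference of 1 is a factor of 2 in rank. Regions are named by the nearest clustered protocadherin start and the distance of their centre from it in bp, with a plus sign towards the downstream end of γ. The gene table gives spans only, so regions were not assigned to exons or introns. In a bulk culture, fewer cells with an open region and less opening per cell cannot be told apart.

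The lists held 135590 to 282440 intervals each, and the reads behind them are unknown. Start regions were found for all 11 neuronal marker genes, and their summed rank scores were 24.5 to 29.6 for the drug experiment, 31.5 to 35.4 for the Arid2 libraries and 20.4 to 30.1 for DIV18. Of 5 microglial markers 3 had a region, and their sums stayed at or under 0.69. Of 6 oligodendrocyte-lineage markers 5 had a region, with sums of 8.69 to 11.7, 1.76 to 3.25 and 3.96 to 7.87 in the same order. The 5 progenitor markers summed to 10.1 to 12.2, 4.02 to 6.7 and 3.61 to 6.6, and the 6 astrocyte markers, 5 with a region, to 4.86 to 7.86, 1.23 to 2.82 and 4.27 to 8.28. The 6 vascular and meningeal markers, 4 with a region, summed to 2.99 to 5.18, 1.79 to 3.19 and 0.763 to 2.72. Of 7 activity-regulated genes, 7 rose at their starts with 30 min of KCl in DMSO and at DIV18, and 5 in the DIV7 non-targeting libraries.

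The gene starts with the highest median scores were those of C-type genes. Pcdhgc3 had a region at −54 bp (chr18:37806106-37806605) with a median score of 4.61 over the 44 libraries. Pcdhgc4 had 3.35 at +254 bp (chr18:37815083-37815582), Pcdhac2 2.18 at +236 bp (chr18:37143664-37144163) and Pcdhac1 2.03 at −161 bp (chr18:37089725-37090224). The order below Pcdhgc3 depended on the experiment. In the drug, Arid2 and DIV18 libraries in turn, the median was 3.43, 3.49 and 3.08 at Pcdhgc4, 0, 0.65 and 3.25 at Pcdhgc5, 2.34, 2.29 and 1.89 at Pcdhac2 and 2.15, 0.12 and 2.11 at Pcdhac1. At DIV18 the Pcdhgc5 median was thus above that of Pcdhgc4, and that of Pcdhac1 above that of Pcdhac2, differences that were not tested. Among all regions at RefSeq promoters, Pcdhgc3 stood above 89.8% of them in drug experiment libraries, 83.8% in Arid2 libraries and 90.4% in DIV18 libraries. The median of all promoter regions was 1.54, 1.26 and 1.25 in these experiments. Pcdhac2 stood above 62.5%, 66.1% and 60.3%, nearer the middle of all promoters. Over the 44 libraries the scores of Pcdhac2 (1.43 to 2.80) and Pcdhac1 (0 to 2.76) overlapped.

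**Figure D1:**
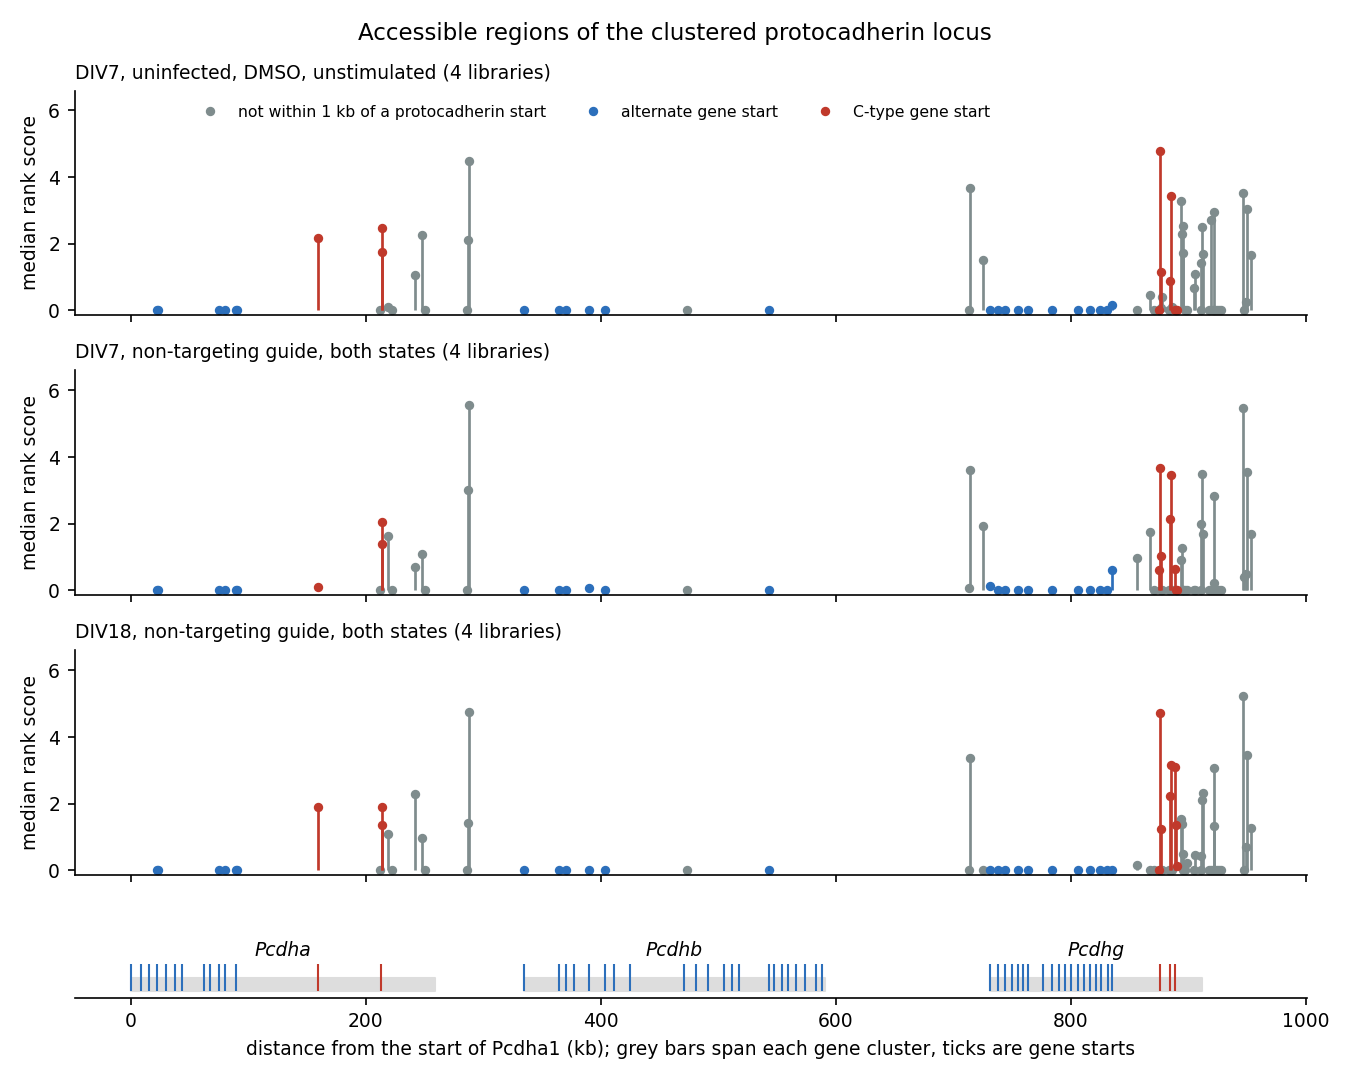
Median rank score of the regions of the locus (vertical axis, log2 scale) against distance from the start of Pcdha1 in kb (horizontal axis), in 3 sets of libraries; colours mark C-type starts, alternate starts and regions away from any protocadherin start. The tall points sit at C-type starts, in the gaps between the clusters and downstream of γ.

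Outside the gene starts, the highest median over all 44 libraries was that of Pcdhgc5 +57799 (chr18:37877095-37877594), 35.5 kb past the γ cluster, with 4.87. In the α-to-β gap, Pcdhb1 −46665 (chr18:37218083-37218582), 29.4 kb past the α cluster, had 4.67, and Pcdhb1 −47563 beside it had 1.93. The order changed with the experiment. In the drug, Arid2 and DIV18 libraries in turn, the median was 3.41, 5.63 and 5.16 at Pcdhgc5 +57799 and 4.55, 5.70 and 4.60 at Pcdhb1 −46665. The latter median was thus the higher in the drug experiment, and narrowly so in the Arid2 libraries. In the DIV7 non-targeting libraries the 2 regions overlapped, at 5.22 to 6.13 (mean 5.58) and 5.29 to 5.73 (mean 5.53) in the same order. These differences were not tested. Both Pcdhgc5 +57799 and Pcdhb1 −46665 were held by all 44 libraries. Known enhancers of the clusters lie in the part between α and β and downstream of γ, but these regions were not matched to them. Within the α cluster, Pcdhac2 +34824 had a median of 1.26 over all 44 libraries, with 1.84, 1.33 and 0.82 by experiment, and Pcdhac2 +28818 had 0.66, 0.76 and 1.81. Within γ, Pcdhgc5 +4821 had 2.38 over all and 2.96, 0.91 and 2.19 by experiment, and Pcdhgc5 +22034 had 1.63, 1.92 and 0.44. In the β cluster, Pcdhb9 +3141 was held by 1 library. In the β-to-γ gap, Pcdhga1 −17505 had 3.61 and lies at the start of Taf7, a general transcription factor gene, and Pcdhga1 −5859 had 0.83.

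Alternate starts were present in the lists at low rank. Of the 53, 50 had a summit within 1 kb in the full list of at least 1 library, and 21 reached the top 100000 in at least 1. The median summit lay within 200 bp of the start for 49 of the 50 and within 100 bp for 40. Pcdhga12, the last alternate γ gene, was listed in all 44 libraries, Pcdhga3 in 41, Pcdha11 in 40 and Pcdha4 in 39. Pcdha1, Pcdha8 and Pcdhb7 were listed in 0, and Pcdhb22 and Pcdhgb4 in 3. By cluster, 4 of 12 alternate α, 4 of 22 β and 12 of 19 alternate γ starts were listed in more than 22 libraries. The matching counts over all promoter entries are not given here, so these counts are not set against promoters at large. The variable exons resemble each other in sequence, and how reads that match several of them were treated is not given in the sources used here, so a low listing is uncertain.

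Longer lists reach weaker summits, so alternate starts were also counted after every list was shortened to 178672 autosomal summits, the length of the shortest. Under FHT1015 without KCl, 28 to 31 of the 53 alternate starts had a summit (median 30.5, 4 libraries), against 14 to 18 under DMSO without KCl (median 15.5, 4 libraries). At this length the 2 sets did not overlap. The full FHT1015 lists were the shorter, with 233609 to 320229 autosomal summits against 340149 to 389907. In the full lists, 35 to 48 of the 53 alternate starts had a summit under FHT1015 and 37 to 40 under DMSO, overlapping sets. The separation is thus one of rank within the list. Over all RefSeq promoter entries the median share with a summit in these full lists was 54.8% under FHT1015 and 60.8% under DMSO. With KCl the counts in the shortened lists were 15 to 21 under FHT1015 and 13 to 16 under DMSO. In the shortened lists the share of all RefSeq promoter entries with a summit was 51.0% to 52.3% under FHT1015 and 53.3% to 53.7% under DMSO without KCl, the lower under FHT1015. The oligodendrocyte-lineage sum was 10.8 to 11.7 in the former and 8.97 to 10.2 in the latter. Of its 5 genes tested, 3 rose and 1 fell under FHT1015, averaged over both times and states. In the same order the astrocyte sum was 5.39 to 6.21 and 6.12 to 7.86, and the neuronal sum 24.5 to 25.7 and 25.1 to 26.1. The progenitor sum was 11.3 to 12.2 and 10.6 to 11.9, and the vascular and meningeal sum 2.99 to 4.00 and 3.57 to 3.70. The part of these markers in the count was not tested.

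In the shortened lists the alternate starts were scarcer at DIV18, with 0 to 13 over 20 libraries and a median of 3.5. The 4 DIV18 non-targeting libraries held 0 to 3 and the 4 DIV7 non-targeting libraries 8 to 16, without overlap. The share of all promoter entries was 51.3% to 52.5% in the former and 50.8% to 51.2% in the latter. The full lists were longer at DIV18, with 290766 to 341812 autosomal summits against 191555 to 245130. In these full lists the DIV18 non-targeting libraries held 7 to 19 alternate starts and the DIV7 ones 13 to 18, which overlap. The neuronal marker sum was 22.6 to 27.9 in the former and 31.5 to 35.4 in the latter, and the astrocyte sum 4.27 to 5.84 and 1.23 to 2.6. In the shortened lists the 4 libraries of the Smarcc2 knockout with empty vector held 5 to 13 alternate starts, the 13 in 1 depolarized library. Those with wild-type Smarcc2 added back held 2 to 6, which overlap. The full lists had 240264 to 282875 autosomal summits with vector and 281291 to 309907 with wild-type Smarcc2. In these full lists the counts were 14 to 22 with vector and 9 to 16 with wild-type Smarcc2, which overlap. The neuronal sum was 26.6 to 30.1 with vector and 22.2 to 26.6 with wild-type Smarcc2, and the astrocyte sum 4.86 to 6.9 and 6.19 to 8.28. The part of these markers in the counts was not tested. The median share of alternate starts in the shortened lists was 28.3% under DMSO, 21.7% in the DIV7 and 3.77% in the DIV18 non-targeting libraries. These counts are descriptions without a test.

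**Figure D2:**
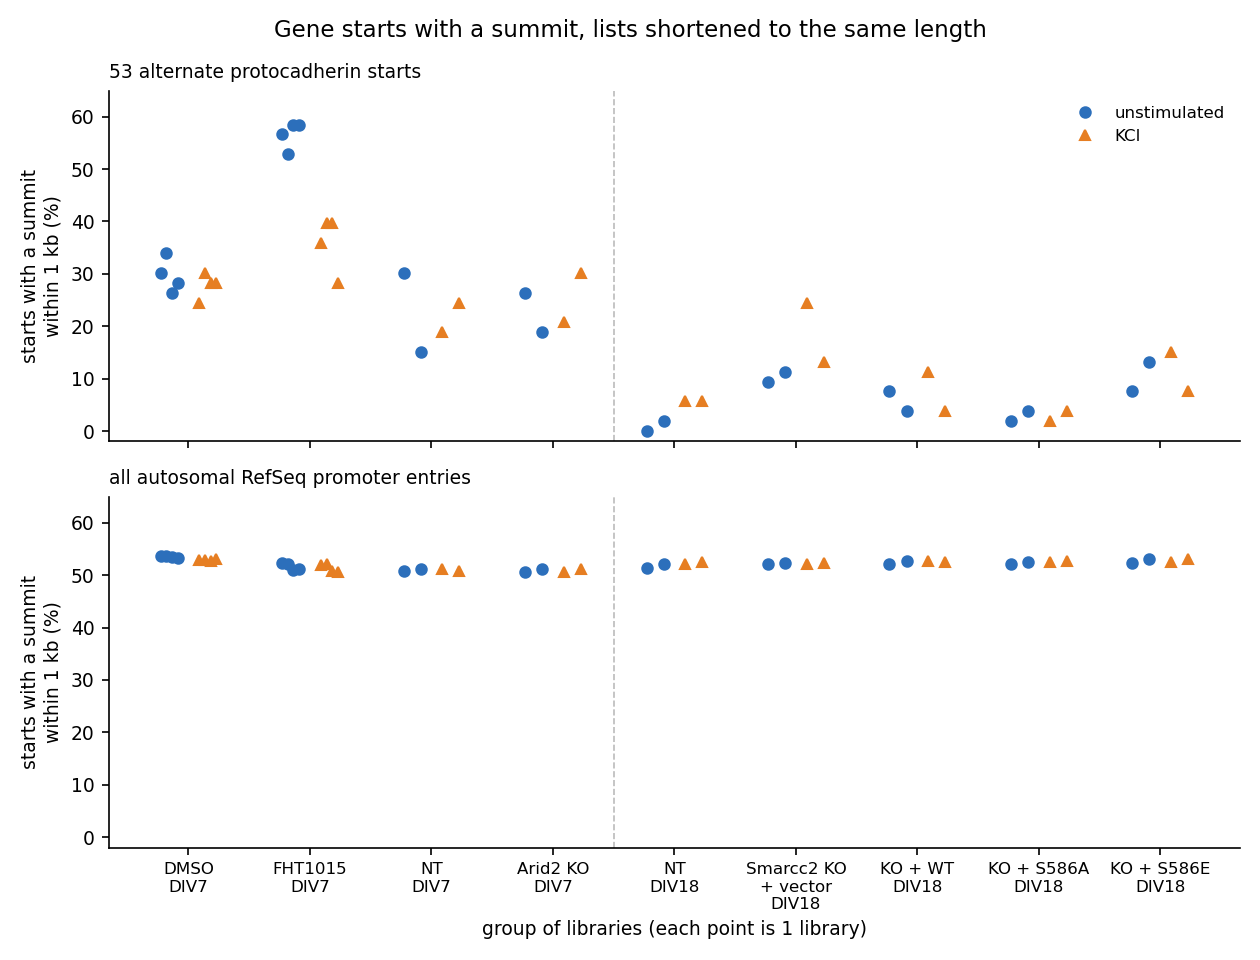
Share of the 53 alternate protocadherin starts and of all RefSeq promoter entries with a summit within 1 kb, in percent (vertical axes), in lists of equal length, each point being 1 library of the group on the horizontal axis. The unstimulated FHT1015 libraries stand highest and most DIV18 libraries lowest for the alternate starts, while the share of all promoter entries stays between 50.6% and 53.7%.

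Pcdhgc5, the last gene of the γ cluster, was the C-type start that differed most between DIV7 and DIV18. Its region at −123 bp (chr18:37819173-37819672) scored 0.30, 0.89, 0.87 and 0.42 in the DIV7 non-targeting libraries and 2.90, 3.05, 3.60 and 3.13 in those at DIV18. It scored 0 in all 8 DMSO libraries, 0 to 0.16 under FHT1015 and 0 to 1.37 in the Arid2 knockout, all at DIV7. All 20 DIV18 libraries, at 2.85 to 3.68, lay above every DIV7 library. The non-targeting libraries differed by 2.55 ± 0.20 (SE, adjusted p = 0.000221, limma). With the 4 DMSO libraries of 30 min in place of the DIV7 non-targeting ones, a comparison chosen after seeing the data, the difference was 3.17 ± 0.12 (adjusted p = 1.3e-05, limma). With the number of summits per list in the fit it was 2.66 (adjusted p = 0.221, limma).

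**Figure D3:**
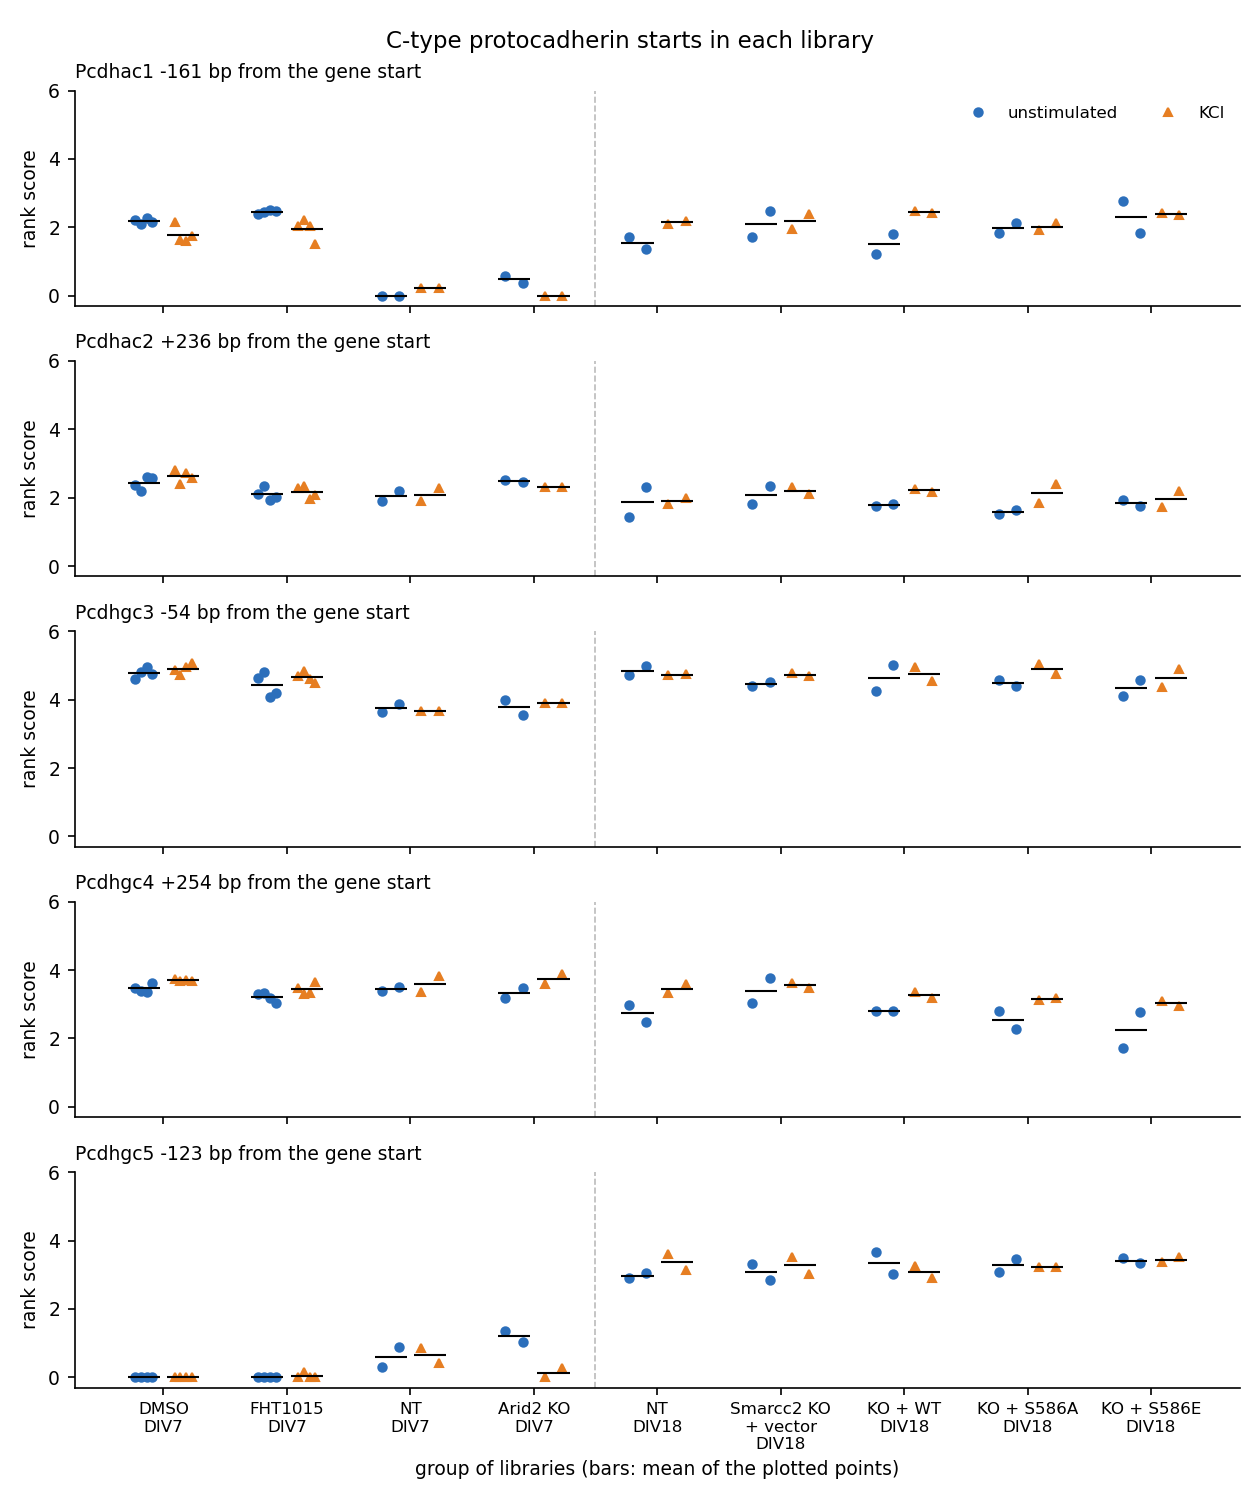
Rank score of the start region of each C-type gene (vertical axis, log2 scale) in each library, by group (horizontal axis). Pcdhgc5 lies at 0 to 1.37 at DIV7 and 2.85 to 3.68 at DIV18, and Pcdhac1 is low in the Arid2 experiment.

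This comparison tested 44 of the 80 regions, those held by at least 2 of its 8 libraries, and called 10 higher and 10 lower at an adjusted p under 0.05. That is 45.5% of those tested, and 51.2% of all regions tested were called, 29% higher and 22.1% lower. With the number of summits per list in the fit, 0 were called by limma, and the share of all regions called in that fit is not given here. Age and experiment coincide and cannot be told apart. A second comparison set the same 4 DIV18 libraries against the 4 DMSO libraries of 30 min, so the values below share their DIV18 side. They are given side by side, against the non-targeting libraries first. Of the 20 calls, 10 were called against DMSO with the same sign, 4 with the opposite sign, and 6 were not called. The matching shares over all regions are not given here. These counts are therefore not read as a result about the locus.

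Pcdhgc5 +410 differed by 1.26 ± 0.14 and 1.28 ± 0.11. Pcdhac2 +28818 (chr18:37172246-37172745), inside the span of the α cluster, differed by 1.43 ± 0.20 and 1.56 ± 0.15. Pcdhga1 −5859 differed by −1.73 ± 0.26 and −1.15 ± 0.081, and Pcdhgc3 −973 by −0.52 ± 0.10 and −0.12 ± 0.032. Pcdhb1 −47563 scored 3.27, 3.36, 2.78 and 2.55 in the DIV7 and 1.49, 1.53, 1.36 and 0.95 in the DIV18 non-targeting libraries, without overlap. Its differences were −1.66 ± 0.14 and −0.66 ± 0.12. The 4 calls with opposite signs lay away from the C-type starts. Pcdhgc5 +4821 differed by 0.68 ± 0.18 and −1.49 ± 0.16, and Pcdhgc5 +6809 by 0.45 ± 0.086 and −1.65 ± 0.12. Pcdhac2 +5793 differed by −0.57 ± 0.17 and 0.73 ± 0.13, and Pcdhgc3 −19587 by −0.65 ± 0.16 and 0.21 ± 0.039.

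At 2 other C-type starts the DIV7 experiments disagreed as well. Pcdhac1 scored 0, 0, 0.23 and 0.23 in the DIV7 non-targeting libraries and 1.60 to 2.26 under DMSO. DIV18 differed from the former by 1.73 ± 0.14 and from the 30 min DMSO libraries by −0.092 ± 0.11. Pcdhgc3 scored 3.65 to 3.88 and 4.59 to 5.06 in these sets, and the differences were 1.07 ± 0.12 and −0.14 ± 0.10. The oligodendrocyte-lineage, progenitor and astrocyte sums given above also differed between the DIV7 experiments, and their part in these values was not tested.

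Among the regions that changed with depolarization both in DMSO at DIV7 and at DIV18 were Pcdhac2 +28818 and Pcdhgc5 +16975, which fell, and Pcdhgc4 −424, which rose. With 30 min of KCl in DMSO at DIV7, 5 of 56 regions tested rose and 10 fell (26.8%), where 31.8% of all regions were called, 12.3% higher and 19.4% lower. At DIV18, averaged over 5 genotypes, 3 of 42 rose and 13 fell (38.1%), where 40.4% of all regions were called, 16.9% higher and 23.5% lower. Both shares lie near their background. These comparisons share no library, and 6 regions were called in both with the same sign, 40% of the 15 DIV7 calls and 37.5% of the 16 DIV18 calls. Over all regions these shares were 38.6% and 26.5%. Of the 15 DIV7 calls, 3 were not tested at DIV18 and could not be shared. Among the 6 shared regions, Pcdhac2 +28818 and Pcdhgc5 +4821, +6809 and +16975 fell, and Pcdhac2 +5793 and Pcdhgc4 −424 rose. The neuronal marker sum was 25.1 to 26.1 in the unstimulated and 27.9 to 29.6 in the depolarized DMSO libraries, and the astrocyte sum 6.12 to 7.86 and 4.93 to 5.63. Of the neuronal markers, 5 of 10 tested rose and 0 fell in DMSO at 30 min, and of the astrocyte markers 1 of 5 rose and 3 fell. At DIV18 7 of 11 neuronal markers rose and 1 fell, and 1 of 5 astrocyte markers rose and 2 fell. Their part in the changes with KCl was not tested.

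Pcdhac2 +28818 scored 1.35 and 0.90 in the unstimulated DMSO libraries of the 30 min groups and 0.10 and 0.089 with KCl, a change of −1.03 ± 0.19 (adjusted p = 0.00245, limma). At DIV18 it scored 1.81 to 2.77 unstimulated and 0.99 to 1.82 with KCl. It changed there by −1.03 ± 0.11 on average (adjusted p = 7.4e-06, limma) and was lower in 5 of 5 genotypes. When 50000 summits were ranked, the DIV7 change was −0.17 (adjusted p = 0.124, limma), and the DIV18 change was −1.02.

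Pcdhgc5 +16975 (chr18:37836271-37836770), in the γ cluster, scored 1.42 and 1.13 without and 0.048 and 0.13 with 30 min of KCl in DMSO, a change of −1.19 ± 0.15 (adjusted p = 0.000259, limma). At DIV18 it scored 0.57 to 2.14 unstimulated and 0 to 1.14 with KCl, overlapping sets, and changed by −0.91 ± 0.16, lower in 5 of 5 genotypes. Pcdhgc5 +6809 (chr18:37826105-37826604) scored 2.60 and 2.60 without and 1.48 and 1.93 with 30 min of KCl in DMSO. It changed by −0.63 ± 0.15 at 10 min, −0.89 ± 0.15 at 30 min and −0.77 ± 0.11 at DIV18. At DIV18 its unstimulated libraries, at 0.64 to 1.28, lay above those with KCl, at 0 to 0.50. With 50000 summits ranked the DIV18 change of Pcdhgc5 +6809 was −0.040 and no longer called, and with whole intervals ranked its change was 0.20 at 10 min and −0.27 at 30 min in DMSO, neither called. Pcdhgc5 +6263 and +16165 changed by −0.85 ± 0.16 and −0.73 ± 0.13 in DMSO at 30 min.

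Pcdhgc4 −424 (chr18:37814405-37814904) moved the other way. It scored 1.04, 0.81, 0.97 and 0.82 in the 4 unstimulated DMSO libraries, 1.61 and 1.70 after 10 min and 1.70 and 1.59 after 30 min of KCl, without overlap. The changes were 0.73 ± 0.12 (adjusted p = 0.00246, limma) and 0.75 ± 0.12 (adjusted p = 0.000936, limma). At DIV18 it scored 0 to 2.81 unstimulated and 1.89 to 3.26 with KCl and rose by 1.19 ± 0.26, higher in 5 of 5 genotypes. The Pcdhgc4 start region at +254 bp rose by 0.55 ± 0.14 at DIV18 (adjusted p = 0.00593, limma) and changed by 0.20 ± 0.12 in DMSO at 30 min (adjusted p = 0.246, limma). When whole intervals were ranked, the change of Pcdhgc4 −424 in DMSO at 30 min was 0.23 (adjusted p = 0.162, limma). Pcdhac2 +5793 (chr18:37149221-37149720) rose by 0.47 ± 0.069 in DMSO at 30 min and by 0.74 ± 0.12 at DIV18.

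Pcdhgc5 +57799, downstream of γ, scored 4.50 to 6.03 unstimulated and 4.59 to 5.17 with KCl at DIV18, overlapping sets, and changed by −0.48 ± 0.12 (adjusted p = 0.0063, limma). Pcdhb1 −46665 in the α-to-β gap changed by −0.31 ± 0.094 (adjusted p = 0.0168, limma). Pcdhgc5 +60234 changed by −0.85 ± 0.29, a call kept in 11 of 20 fits that left out 1 library.

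**Figure D4:**
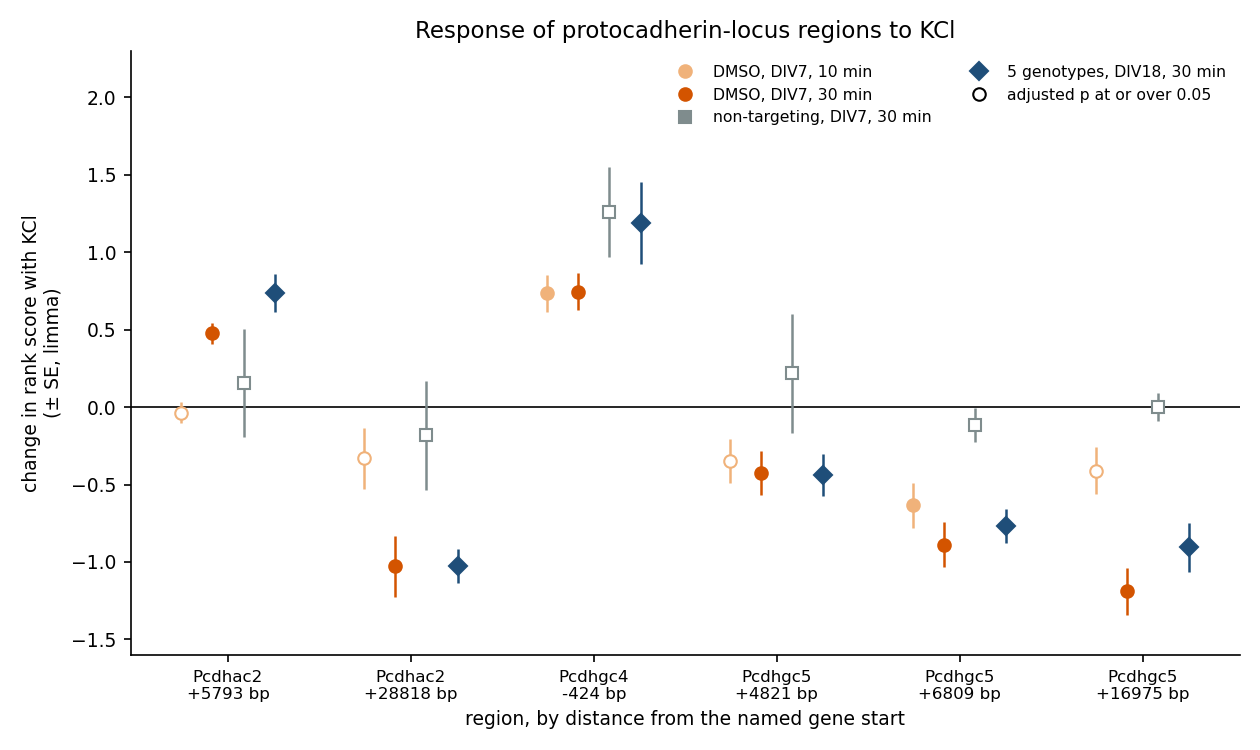
Change in rank score with KCl (limma estimate ± SE, log2 scale) at the 6 regions called both in DMSO at 30 min and at DIV18, in 4 comparisons; filled points have an adjusted p under 0.05 and open points do not. Pcdhac2 +28818 and Pcdhgc5 +6809 and +16975 lie below 0 and Pcdhgc4 −424 above 0 in DMSO at 30 min and at DIV18.

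Among the other C-type starts, Pcdhac1 changed by −0.54 ± 0.19 in DMSO at 30 min (adjusted p = 0.047, limma), a call kept in 0 of 4 fits that left out 1 library, and by 0.35 ± 0.14 at DIV18 (adjusted p = 0.0675, limma). Pcdhgc3 changed by 0.16 ± 0.11 and 0.19 ± 0.12 (adjusted p = 0.342 and 0.2, limma), and Pcdhac2 by 0.053 ± 0.14 and 0.25 ± 0.13 (adjusted p = 0.894 and 0.145, limma). The Pcdhgc5 start changed by 0.061 ± 0.12 at DIV18. After 10 min of KCl in DMSO, 3 of 56 regions rose and 2 fell, where 18.7% of all regions were called, 5.74% higher and 13% lower. The others called at 10 min were Pcdhgc3 +689, which rose by 0.51 ± 0.14, Pcdhgc3 +1899, by 0.57 ± 0.17, and Pcdhga1 −17505 at Taf7, with −0.63 ± 0.15. Leaving out 1 library kept these 3 calls in 1 of 4, 0 of 4 and 1 of 4 fits, and that of Pcdhgc5 +6809 at 10 min in 2 of 4.

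In the DIV7 non-targeting libraries, 0 of 42 regions were called with KCl by limma (6 at an unadjusted p under 0.05), where 0.183% of all regions were called. Pcdhgc4 −424 scored 1.52 and 1.57 without and 2.90 and 2.71 with KCl there, a difference of 1.26 ± 0.29 (adjusted p = 0.197, limma). In the DIV18 non-targeting genotype alone, 0 of 42 rose and 2 fell, where 14.9% of all regions were called, 5.76% higher and 9.09% lower. Pcdhac2 +28818 changed by −1.20 ± 0.24 and Pcdhgc5 +6809 by −1.01 ± 0.25, which turned to 0.34 with whole intervals ranked. Leaving out 1 library kept the first call in 3 of 4 fits and the second in 1 of 4.

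Under FHT1015 the start regions of Pcdhac2, Pcdhgc3 and Pcdhgc4 fell. The alternate starts of Pcdha11, Pcdhga12 and Pcdha4 scored higher than under DMSO, where their scores were at or near the floor of 0. Averaged over both times and both states, 19 of 56 regions were higher and 16 lower under FHT1015 (62.5%), where 62.1% of all regions were called, 25.9% higher and 36.1% lower. A region enters the test when at least 2 of the 16 libraries hold it, so one held under FHT1015 alone had to differ. Of the 53 alternate genes 14 had a start region tested, and 9 of these 14 were held by 0 of the 8 DMSO libraries. The 19 higher calls include 10 alternate starts, some of them held under FHT1015 alone. Neither the 10 nor the 19 is therefore read as a result about the alternate starts.

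The Pcdha11 region at −174 bp (chr18:37010434-37010933) was held by 2 of the 8 DMSO libraries, with scores of 0 to 0.10. Under FHT1015 it scored 0.75 and 0.75 without KCl at 10 min, 0.94 and 1.10 without KCl at 30 min, 0.43 and 0.60 with 10 min of KCl and 0.14 and 0.14 with 30 min of KCl. The sets did not overlap, and the average difference was 0.58 ± 0.042 (adjusted p = 1.1e-06, limma). Pcdhga12 at +327 bp scored 0 to 0.32 under DMSO and 0.19 to 0.72 under FHT1015 and rose by 0.37 ± 0.064. Pcdha4, held by 3 of the 8 DMSO and 7 of the 8 FHT1015 libraries, rose by 0.35 ± 0.053. Pcdha11 and Pcdha4 scored 0 in the 4 DMSO libraries without KCl, where only a rise can show. Their rise is therefore not read as a result about the alternate starts either.

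Of the C-type starts, Pcdhac2 changed by −0.40 ± 0.069, Pcdhgc3 by −0.30 ± 0.057 and Pcdhgc4 by −0.26 ± 0.062 (adjusted p = 0.000501, 0.000917 and 0.00388, limma). Pcdhgc3 scored 4.59 to 5.06 under DMSO and 4.09 to 4.85 under FHT1015, overlapping sets. Without KCl it scored 4.95 and 4.76 under DMSO and 4.09 and 4.19 under FHT1015 at 30 min, a difference of −0.71 ± 0.11, and the difference at 10 min was 0.013 ± 0.11. With KCl the differences were −0.46 ± 0.11 at 30 min and −0.031 ± 0.11 at 10 min. Pcdhac1 changed by 0.22 ± 0.093 (adjusted p = 0.0609, limma) and Pcdhgc5, at the floor, by 0.021 ± 0.021.

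Away from the starts, Pcdhb1 −47563 (chr18:37217185-37217684) scored 1.76 to 2.25 under DMSO and 2.59 to 2.98 under FHT1015, without overlap, and rose by 0.75 ± 0.072 (adjusted p = 7.8e-06, limma). Its higher neighbour Pcdhb1 −46665 changed by 0.19 ± 0.10 (adjusted p = 0.125, limma). Pcdhgc5 +23308 (chr18:37842604-37843103), 0.981 kb past the γ cluster, scored 1.44 to 1.85 under DMSO and 0.18 to 0.93 under FHT1015, again without overlap, and changed by −1.05 ± 0.094 (adjusted p = 5e-06, limma). Pcdhgc5 +6809 changed by −0.73 ± 0.073, Pcdhac2 +34824 by −0.43 ± 0.069 and Pcdhgc5 +64163 by 0.54 ± 0.095. When whole intervals were ranked in place of summits, Pcdhgc5 +23308 changed by 0.15 and +6809 by 0.015. With the number of summits per list in the fit 13 regions were called, 7 higher and 6 lower, and the change of Pcdhgc3 was not called (adjusted p = 0.146, limma). With 50000 summits ranked 4 were higher and 10 lower. The shares of all regions called in these 2 fits are not given here.

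**Figure D5:**
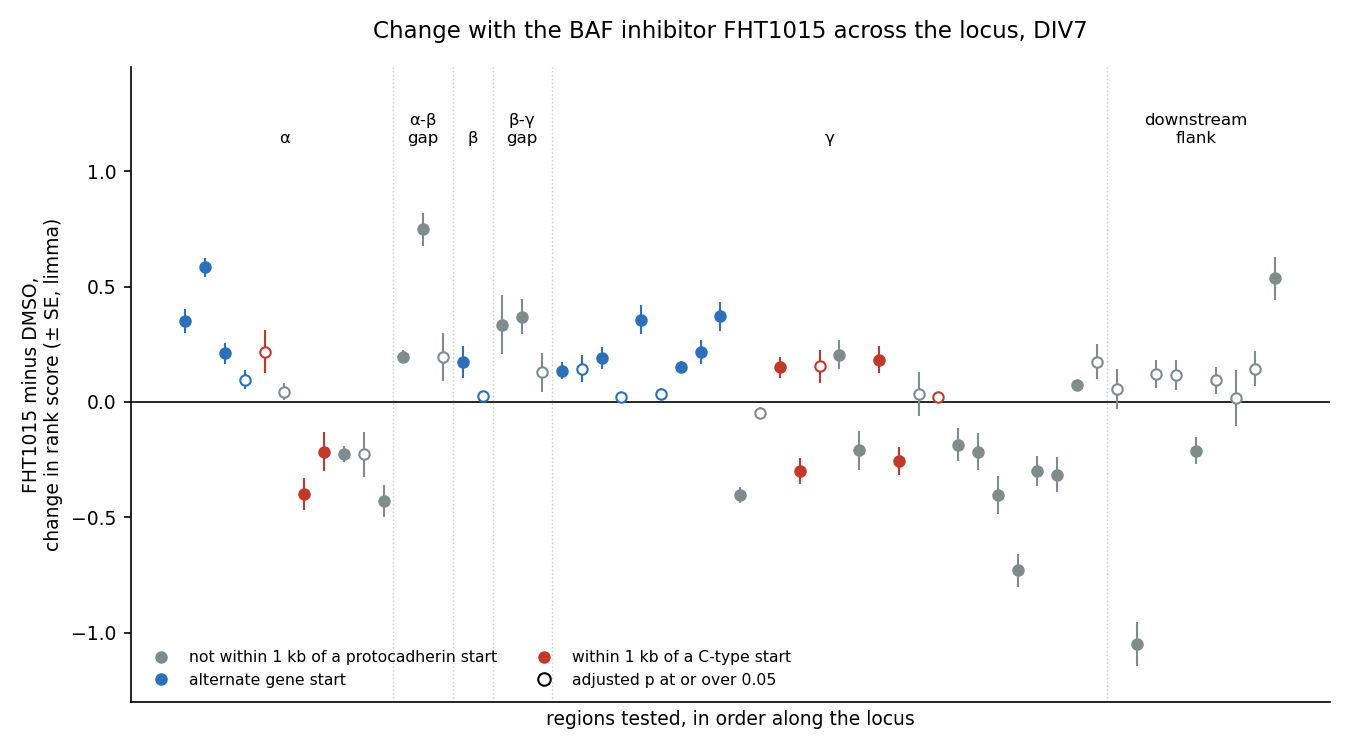
Change in rank score under FHT1015 against DMSO at DIV7 (vertical axis, limma estimate ± SE, log2 scale, 16 libraries) for the 56 regions tested, in order along the locus (horizontal axis); filled points have an adjusted p under 0.05. The lowest point is Pcdhgc5 +23308, and alternate starts held by no DMSO library can only lie above 0.

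The 30 min KCl response under FHT1015 was compared with that in DMSO, the same DMSO libraries as above. Of 56 regions, 6 had a more positive response under FHT1015 and 8 a more negative one, where 23.3% of all regions were called, 13.1% higher and 10.2% lower. Pcdhac2 +28818 scored 0.11 and 0 without and 0.62 and 0 with KCl under FHT1015, and its response differed from that in DMSO by 1.29 ± 0.27 (adjusted p = 0.00703, limma), or 0.17 and not called with 50000 summits ranked. It was near the floor of 0 under FHT1015 without KCl, where a fall cannot show. Pcdha11 changed with KCl by 0.050 in DMSO and by −0.88 under FHT1015, a difference of −0.93 ± 0.12 (adjusted p = 0.000404, limma). It scored 0 in DMSO without KCl at 30 min, where a fall cannot show, so the floor limits this difference too. The 8 more negative responses include 4 alternate starts. Of the alternate starts tested, all but Pcdhga12 scored 0 in DMSO without KCl at 30 min.

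Arid2 knockout gave no call. Of 42 regions, 0 were called by limma and 0 had an unadjusted p under 0.05, where 0.00542% of all regions were called. The changes ran from −0.39 to 0.52. The C-type starts changed by 0.12 ± 0.096 at Pcdhac1, 0.34 ± 0.17 at Pcdhac2, 0.12 ± 0.14 at Pcdhgc3, 0.013 ± 0.16 at Pcdhgc4 and 0.046 ± 0.24 at Pcdhgc5.

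Smarcc2 knockout with vector gave 1 higher and 2 lower of 42 regions against the non-targeting libraries, where 10.7% of all regions were called, 3.47% higher and 7.21% lower. Pcdhac2 +5793 scored 0.44, 0.37, 0.098 and 0.43 in the knockout and 1.00, 0.62, 1.21 and 1.50 in the non-targeting libraries, without overlap, and changed by −0.75 ± 0.20 (adjusted p = 0.0267, limma). Pcdhac2 +28818 scored 2.09, 1.81, 1.10 and 0.99 in the knockout and 2.77, 2.77, 1.32 and 1.82 in the non-targeting libraries, unstimulated libraries first, and changed by −0.67 ± 0.17 (adjusted p = 0.0223, limma). Within each state the knockout libraries were the lower at both regions. Pcdhgc4 +1108 rose by 0.11 ± 0.032 (adjusted p = 0.0473, limma). Leaving out 1 library kept the first call in 2 of 8 fits, the second in 4 of 8 and the third in 0 of 6.

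Wild-type Smarcc2 added back gave 1 higher and 1 lower of 42 regions against vector, where 7.78% of all regions were called, 4.5% higher and 3.28% lower. Pcdhac2 +5793 scored 0.69, 0.40, 1.44 and 1.52 with wild-type Smarcc2 and rose by 0.68 ± 0.20 (adjusted p = 0.0496, limma), and Pcdhgc5 +58580 changed by −0.48 ± 0.13 (adjusted p = 0.0429, limma). Leaving out 1 library kept either call in 0 of 8 fits. The KCl response of Pcdhac2 +5793 was −0.15 in the knockout with vector, 0.55 in the non-targeting genotype and 0.94 with wild-type Smarcc2, and whether these differ was not tested. Against wild-type, 0 of 42 regions were called by limma for S586A (3 at an unadjusted p under 0.05), where 0.0414% of all regions were called. For S586E 0 were called by limma as well (3 at an unadjusted p under 0.05), where 0.12% of all regions were called.

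Other genes of the pathway were read at their own starts. Of 15 regulators of promoter choice and silencing 13 had a region, and under FHT1015 6 of these rose and 0 fell, where 30.8% of all promoter regions rose and 21.7% fell. They include Dnmt1, the maintenance DNA methyltransferase (0.38 ± 0.068), Setdb1, a histone methyltransferase (0.32 ± 0.064), and Stag1, a cohesin subunit (0.43 ± 0.15). With 30 min of KCl in DMSO 0 of the 13 rose and 3 fell, Pds5a (−1.10 ± 0.33), Wiz (−1.09 ± 0.15) and Stag1 (−1.04 ± 0.30), where 21.4% of all promoter regions rose and 10% fell. With KCl at DIV18, over the 5 genotypes, 1 of the 13 rose and 0 fell. Of 10 non-clustered protocadherins, single genes outside the clusters, 9 had a region. KCl raised 6 of the 9 and lowered 1 at DIV18, with Pcdh18 up by 1.15 ± 0.16, Pcdh20 by 1.02 ± 0.13 and Pcdh8 by 0.70 ± 0.11, and Pcdh1 changed by −0.49 ± 0.092. Of all promoter regions, 32.9% rose and 12.7% fell in that comparison. With 30 min of KCl in DMSO 2 of the 9 rose and 2 fell. Under FHT1015 2 of the 9 rose and 5 fell, and Pcdh20 changed by −0.84 ± 0.078. Of 9 signalling partners 3 rose and 0 fell with KCl at DIV18, Marcks by 0.87 ± 0.11, Ctnnb1, β-catenin, by 0.65 ± 0.13 and Cyfip2 by 0.43 ± 0.092. With 30 min of KCl in DMSO 0 of the 9 rose and 0 fell, and 2 rose and 0 fell under FHT1015. These counts are to be read against the same shares of all promoter regions.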

How the data were processed

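Each of the 44 ATAC-seq libraries has a deposited peak list on mm10. The tools named in the submitters' processing notes, without versions, are MACS2, Bowtie2, Picard, bedtools, SAMtools, FastQC and Trim Galore; the notes give no roles. The lists hold 1 line per summit, per library and not pooled. The authors' −log10 p per summit gave the ranks, and their fold enrichment, a ratio to background, broke ties. The deposited −log10 q and score columns were not used. Read depth is unknown, and the lists differ in length.

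Summits on the 19 autosomes were ranked within each library and the top 100000 kept. Windows of 500 bp were centred on summits, best rank first and without overlap, giving 183340 regions. A summit was given to the nearest region centre. Rank scores (log2 of 100000 over rank, 0 where absent) were fitted with limma 3.58.1 in R 4.3.3, separately for each experiment, with 1 mean per group, a variance trend and Benjamini-Hochberg adjustment over all regions held by at least 2 libraries, 101323 in the drug experiment. Calls are at an adjusted p under 0.05. The procedure was tested on simulated data.

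Gene spans came from RefSeq tables of GRCm38.p6, which give no strand here. The named regions are the C-type starts, the alternate genes with the highest and lowest start scores, up to 6 called regions per comparison by size, and the strongest non-start region of each cluster, gap and flank; ties at 0 were broken by the number of libraries listing the gene. Other regions named serve the comparison beside them and were chosen after their values were seen. The members and the gene lists were chosen with earlier results of these data known. List genes without a promoter entry were matched at either end of the gene.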

Additional observations from a re-analysis of the deposited data

Results flagged for a closer look

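Of the regions named for this comparison, 6 had a 30 min KCl response that differed between FHT1015 and DMSO by the interaction test. The difference, FHT1015 minus DMSO, was 1.29 at Pcdhac2 +28818, 0.94 at Pcdhgc5 +16975, 0.87 at Pcdhac2 +34824 and 0.74 at Pcdhgc5 +6263, and −0.94 at Pcdhac2 +893 and −0.93 at Pcdha11 −174. In DMSO the group mean of Pcdhac2 +28818 went from 1.12 to 0.095 with KCl, and under FHT1015 from 0.055 to 0.31. At Pcdhgc5 +16975 the means went from 1.28 to 0.089 in DMSO and from 0.31 to 0.063 under FHT1015. Both regions started low under FHT1015, so a fall as large as that in DMSO could not show. Pcdha11 −174 was at 0 in DMSO without KCl, where no fall could show. Leaving out 1 library kept the call of Pcdhac2 +893 in 4 of 8 fits and that of Pcdhgc5 +6263 in 2 of 8.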

How the results depend on the processing

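Named results that were called kept direction and call in 273 cases under the other settings, lost the call in 44 and reversed in 8. The causes were not tested. Ranking whole intervals reversed Pcdhgc5 +23308 (0.15) and +6809 (0.015) under FHT1015, Pcdhgc5 +6809 with 10 min of KCl (0.20) and with KCl in the DIV18 non-targeting genotype (0.34), and Pcdhgc4 +1108 in the Smarcc2 knockout (−0.41). DMSO libraries as the DIV7 set reversed the age difference of Pcdhac1 (−0.092) and Pcdhgc3 (−0.14), and the number of summits as a covariate that of Pcdhgc5 +22034 (0.088).

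With whole intervals ranked, the calls numbered 2 for 10 min of KCl, 7 for 30 min in DMSO (4 higher, 3 lower), 9 for the FHT1015 effect on KCl, 0 for Smarcc2 knockout and 1 for wild-type add-back. With 50000 summits ranked they numbered 9 for 30 min of KCl in DMSO, 14 for FHT1015, 4 for its effect on KCl (3 higher, 1 lower), 10 for KCl at DIV18 (4 higher, 6 lower) and 0 for wild-type add-back. With the number of summits as a covariate they were 13 for FHT1015, 1 for wild-type add-back and 0 for age. With as many summits as the shortest list they were 26 for KCl at DIV18 (9 higher, 17 lower), 4 in its non-targeting genotype, 1 for wild-type add-back and 32 for age. The numbers tested and the shares of all regions called are not given for these settings, nor for the fits below. Whether the locus only followed the background in them therefore cannot be read from these counts.

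Leaving out 1 library gave 2 to 4 calls for 10 min of KCl, 8 to 10 for 30 min, 30 to 35 for FHT1015, 9 to 15 for its effect on KCl, 0 to 3 for KCl in the DIV18 non-targeting genotype, 12 to 19 over the 5 genotypes, 0 to 3 for Smarcc2 knockout, 0 to 2 for wild-type add-back, 0 to 1 for S586E, 18 to 21 for age, and 0 to 0 for Arid2 knockout, S586A and KCl in the DIV7 non-targeting libraries.

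Deviations of same-numbered libraries correlated at −0.122 to 0.116 in the drug experiment, with 1 of 28 pairs of groups over 0.1. At DIV18 all 45 pairs were above 0, at 0.0318 to 0.203 with a median of 0.109, and 28 of the 45 were over 0.1. Since not every pair passed 0.1, the numbers were not taken as pairing. With the replicate block the calls numbered 7 and 15 for 10 and 30 min of KCl in DMSO, 33 for FHT1015, 13 for its effect on KCl, 3 in the DIV18 non-targeting genotype, 19 over the 5 genotypes, 2 for Smarcc2 knockout, 3 for wild-type add-back and 20 for age, and 0 for Arid2 knockout, S586A, S586E and KCl in the DIV7 non-targeting libraries. Of the named calls, the block ended that of Pcdhgc4 +1108 in the Smarcc2 knockout.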
